A study of Mus musculus with 6 samples.

Results

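Very wide accessible regions are described here, selected on width alone. They are the autosomal intervals of at least 2000 bp in either of 2 ATAC-seq peak lists from mouse epiblast stem cells, merged across the lists where they overlapped by at least 1 bp. This gave 1140 wide regions, and together they covered 2.64 Mb. Merging the autosomal intervals of any width gave 238308 regions, called all merged regions below. Of those, 1431 spanned at least 2000 bp, since overlapping narrower intervals were merged too. The FM list held 870 wide intervals, which were 0.425% of its 204650 autosomal intervals, and the KO list held 692, which were 0.501% of 138130. Because width chose the regions, their number and width are a description.

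The study profiled open chromatin with the Tn5 transposase in epiblast stem cells, the cultured counterpart of the post-implantation epiblast. The cells of both groups had been grown on an irradiated feeder layer of mouse embryonic fibroblasts with bFGF and Activin A, then aggregated and differentiated in serum as embryoid bodies for 2 days. One group carried a Mixl1 knockout. The other carried inducible Mixl1 and was given doxycycline (1 µg/mL) 24 h before collection. Mixl1 encodes a paired-type homeobox factor that is switched on in the primitive streak. Each group had 3 libraries of 50000 cells amplified with 11 PCR cycles, and the labels do not say whether these came from separate cultures. The labels describe neither the knockout allele nor the number of lines used, nor whether knockout cells received doxycycline, so genotype, agent and cell line cannot be told apart. The design compares the knockout with the induced state. It is represented by 1 deposited list per group, so no value has a replicate error and the groups could not be tested against each other. The KO list is the knockout. No label explains the name FM, and it was taken as the induced group because no other group remained.

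The files give positions and peak values but no reads, so the sequencing depth is unknown. Intervals and summits are those of the authors' peak caller. Shares are given with exact Clopper-Pearson 95% intervals in parentheses, which cover the counting of regions only. Of 7 epiblast markers, 6 had an FM interval and 7 a KO interval within 1 kb of a gene end. The same held for 5 and 5 of 8 fibroblast markers, 5 and 6 of 8 extraembryonic markers, and 5 and 3 of 8 markers of other organs, so an interval at a gene did not by itself mark a cell type. At Mixl1 itself (chr1:180693043-180697034) the FM list had 1 interval within 1 kb, 1301 bp wide, and the KO list had 2, the wider 1377 bp, and no wide region was called there. This checks neither label, since the labels do not give the altered part of the gene.

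Most accessible sites are short, nucleosome-free stretches bound by transcription factors. Promoters of many mammalian genes lie in CpG islands, stretches rich in CG dinucleotides that stay largely unmethylated, and their open chromatin can extend over neighbouring nucleosomes into the gene. A peak caller reports such a domain as 1 long interval and marks each local maximum of signal inside it as a summit.

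The promoter windows of 5 genes show the range of sequence found at wide regions. Csf2ra, Pim3 and Fat3 belong to the widest region of each class that held 1 start among the promoter windows used. These regions were wide in both lists, in FM only and in KO only, respectively. Kdm7a and Actl9 had the most and the fewest CG dinucleotides of all windows whose start lay in a wide region. Each window runs 5′ to 3′ on the gene's strand from 250 bases before to 50 bases after the RefSeq start, in GRCm38.p6, the assembly named mm10, and capitals mark CG dinucleotides. The windows lie at chr19:61228369-61228668 on the minus strand (Csf2ra), chr15:88861944-88862243 on the plus strand (Pim3), chr9:16502005-16502304 on the minus strand (Fat3), chr6:39206724-39207023 on the minus strand (Kdm7a) and chr17:33432649-33432948 on the plus strand (Actl9).
Csf2ra: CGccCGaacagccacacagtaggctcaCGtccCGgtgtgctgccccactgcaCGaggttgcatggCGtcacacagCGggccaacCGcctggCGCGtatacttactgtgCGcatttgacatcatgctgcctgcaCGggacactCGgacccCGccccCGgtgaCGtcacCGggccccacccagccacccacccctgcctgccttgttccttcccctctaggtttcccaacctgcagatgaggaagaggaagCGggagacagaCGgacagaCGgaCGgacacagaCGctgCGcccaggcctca
Pim3: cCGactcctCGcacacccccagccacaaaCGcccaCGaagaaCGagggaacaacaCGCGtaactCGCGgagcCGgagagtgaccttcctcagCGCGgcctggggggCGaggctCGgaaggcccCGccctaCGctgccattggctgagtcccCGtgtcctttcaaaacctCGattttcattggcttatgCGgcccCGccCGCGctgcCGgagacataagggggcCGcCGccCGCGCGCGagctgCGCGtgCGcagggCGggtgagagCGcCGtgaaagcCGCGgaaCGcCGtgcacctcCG
Fat3: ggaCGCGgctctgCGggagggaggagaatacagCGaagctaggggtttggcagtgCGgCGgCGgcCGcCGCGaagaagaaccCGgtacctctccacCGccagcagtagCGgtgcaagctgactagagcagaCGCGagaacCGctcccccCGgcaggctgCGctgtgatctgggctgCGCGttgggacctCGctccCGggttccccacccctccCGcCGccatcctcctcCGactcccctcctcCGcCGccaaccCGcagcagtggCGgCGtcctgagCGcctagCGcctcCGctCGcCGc
Kdm7a: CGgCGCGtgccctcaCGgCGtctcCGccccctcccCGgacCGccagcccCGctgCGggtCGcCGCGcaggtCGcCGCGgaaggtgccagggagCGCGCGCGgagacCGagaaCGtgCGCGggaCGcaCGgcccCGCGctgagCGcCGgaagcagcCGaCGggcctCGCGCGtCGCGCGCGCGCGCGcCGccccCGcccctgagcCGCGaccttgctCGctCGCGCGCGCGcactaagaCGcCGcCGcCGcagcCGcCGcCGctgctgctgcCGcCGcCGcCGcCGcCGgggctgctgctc
Actl9: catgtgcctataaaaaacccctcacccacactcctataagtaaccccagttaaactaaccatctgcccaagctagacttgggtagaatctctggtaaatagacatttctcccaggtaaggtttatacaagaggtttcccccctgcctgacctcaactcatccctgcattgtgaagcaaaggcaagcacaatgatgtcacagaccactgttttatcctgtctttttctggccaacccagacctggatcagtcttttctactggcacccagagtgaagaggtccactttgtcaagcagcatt
Csf2ra encodes a subunit of the GM-CSF receptor, Pim3 a serine/threonine kinase, Fat3 an atypical cadherin, Kdm7a a histone demethylase and Actl9 an actin-like protein of the testis. The windows held 23, 40, 35, 65 and 0 CG dinucleotides in that order. Actl9 was the 1 window without any among the 1003 windows whose start lay in a wide interval, and its region was 2084 bp wide in FM, while the widest KO interval there was 400 bp.

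The summits of these regions were spread along the gene and not piled at the start. At Csf2ra the FM interval of 3629 bp held 10 summits, from 159 bp before the start (-159) to 3032 bp after it, with fold enrichments of 1.75 to 3.26. The strongest lay 1035 bp downstream, and the strongest of the 6 KO summits lay 1134 bp downstream with a fold of 3.37 in its own list. In Fat3 the strongest summit was next to the start in both lists, at -57 bp in FM and -75 bp in KO, and the others reached 1716 bp into the gene in each. In Pim3 the strongest FM summit lay 1817 bp downstream with a fold of 2.61, and the KO list had a summit at 1814 bp but its strongest at -62 bp. Thus the same kind of wide region could peak at the start or well inside the gene.

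Which list made a region wide was examined next. Of the 1140 regions, 422 (37.0%, 34.2 to 39.9) held a wide interval of both lists, 448 (39.3%, 36.4 to 42.2) of FM only and 270 (23.7%, 21.2 to 26.3) of KO only. Among the regions wide in 1 list, 62.4% (58.7 to 66.0) were wide in FM. With only the intervals of −log10 q of at least 50, each list had 446 wide intervals and the FM share was 50%. The same q threshold need not select intervals of the same strength in both lists, since depth is unknown and the median −log10 q of wide intervals differed (51.4 in FM and 74.0 in KO).

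Every wide region overlapped an interval of both lists. All 448 FM-only regions overlapped a KO interval, whose width had a median of 1630 bp and ran from 211 to 1998 bp. It was at least 1500 bp in 269 regions (60.0%, 55.3 to 64.6), at least 1900 bp in 84, and under 1000 bp in 58. All 270 KO-only regions overlapped an FM interval, with a median of 1519.5 bp and a range of 283 to 1997 bp. It was at least 1500 bp in 142 (52.6%, 46.5 to 58.7), at least 1900 bp in 45 and under 1000 bp in 39. The width of the widest FM interval minus that of the widest KO interval had a median of 628 bp in FM-only and of -766.5 bp in KO-only regions, as the plot of both widths shows. Where the other list held several intervals, this difference counts only the widest of them.

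**Figure D1:**
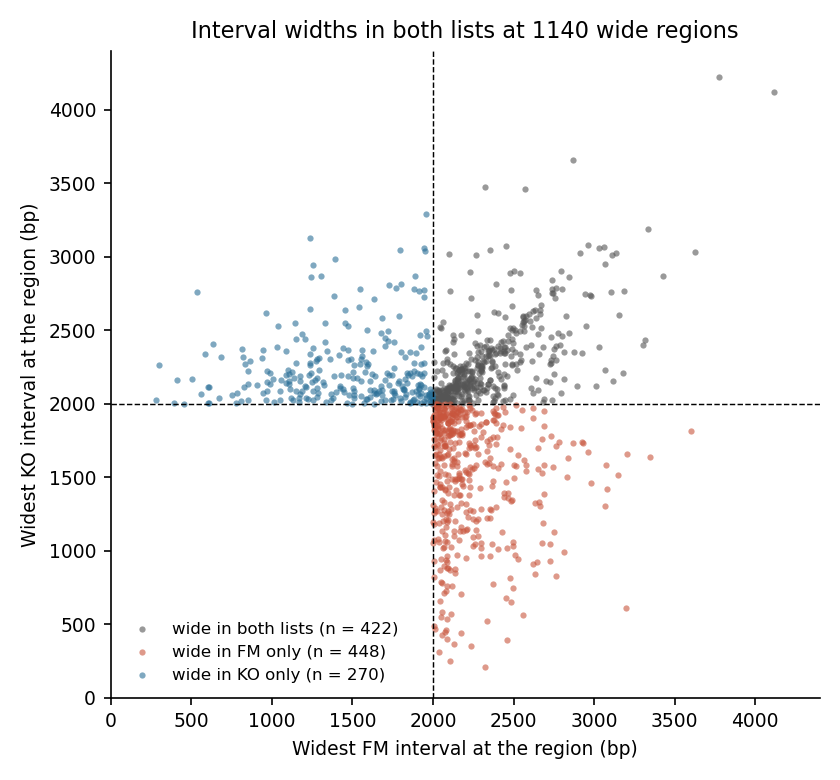
Width in bp of the widest FM interval (x axis) against the widest KO interval (y axis) at each of the 1140 wide regions, 1 point per region, coloured by the list in which it was wide; dashed lines mark 2000 bp. Of the 422 regions wide in both lists, 302 had widths within 200 bp of each other, and the FM minus KO width ran from -1149 to 971 bp. The one-list regions spread from just below the threshold in the other list down to 211 bp (KO) and 283 bp (FM).

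In many one-list regions the other list covered much of the same ground in pieces. Of the FM-only regions, 234 (52.2%, 47.5 to 56.9) held 2 or more KO intervals, and KO intervals covered a median of 83.6% of the region. Of the KO-only regions, 187 (69.3%, 63.4 to 74.7) held 2 or more FM intervals, which covered a median of 87.0%. The largest gap between the pieces had a median of 204 bp in the KO list and 185 bp in the FM list. The lists also differed in the closest spacing of intervals anywhere on the autosomes: neighbouring KO intervals were never closer than 102 bp, whereas 3349 pairs of FM neighbours were, down to 78 bp. Joining the FM pairs closer than 102 bp, an alternative chosen after seeing the data, gave 983 FM wide intervals and an FM share of 68.6% of the one-list regions. Whether the callers' settings differed was not tested.

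Most of the 422 regions wide in both lists had similar bounds in each. Over their 844 bounds the lists differed by a median of 46 bp and at most 1405 bp, and 591 bounds (70.0%) were within 100 bp. The stretch covered by wide intervals of both lists was a median of 94.6% of the region, with a lowest value of 38.4%. The widest FM and KO intervals differed by at most 200 bp in 302 of these regions (71.6%), against 68 (15.2%) of the FM-only and 33 (12.2%) of the KO-only regions, where the selection itself requires a difference.

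Just inside the threshold, the FM list had intervals of 2000 bp at Ssbp2 and 2001 bp at Hmg20b and Gpbp1, and just outside it intervals of 1999 bp at Hnrnpul2 and Ttc9c, Aldh1l1 and Iqsec1. The KO list had 2000 bp at Bach1 and 2001 bp at Adam6a and Dsp inside, and 1999 bp at Dcbld1 and Pfkfb3 and 1998 bp at Sap30l outside. In the last 10 bp below the threshold there were 30 FM and 20 KO intervals, and in the first 10 bp from it 27 and 23. The distribution of widths therefore had no step at 2000 bp.

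The widest regions comprised loci with no protein-coding gene nearby and regions over genes. The widest, 4221 bp at chr17:39843005-39847225, overlapped Rn18s-rs5, a pseudogene of 18S ribosomal RNA, with no protein-coding gene within 100 kb. Its FM interval was 3773 bp with 7 summits and its KO interval 4221 bp with 11. The next, 4119 bp at chr14:19415625-19419743, overlapped no annotated gene and had 11 summits in each list. Their −log10 q values of 1785 (FM) and 1327 (KO) for the former and 6305 and 23936 for the latter stood far above the wide medians of 51.4 in FM and 74.0 in KO. Similar values occurred at chr1:24612147-24614897, over the pseudogenes Gm10222 and Gm10925 (3815 and 9235), and FM also reached 1003 near Tubb3, with 480 in KO. The third widest, 3677 bp on chromosome 9, lay at the predicted genes Gm20783 and LOC108167694 and the lncRNA 4930526I15Rik. No source used here says how reads matching several genomic copies were placed.

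Among the other 10 widest regions were genes of signalling and gene control. The region at Fzd2, a WNT receptor, was 3556 bp with a widest FM interval of 2553 bp and a widest KO interval of 2532 bp. At Csf2ra the 2 widths were 3629 and 3032 bp. Dmpk and Six5, a neighbouring kinase gene and homeobox gene, shared a region with a 3471 bp KO interval where FM had 2322 bp. Hivep2, a zinc finger factor, had 2569 bp in FM and 3461 bp in KO, and Camk2n2, an inhibitor of CaM kinase II, had 2100 and 3021 bp. Gpr3, an orphan receptor, had 3428 and 2866 bp. These are levels of width in each list and carry no error.

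The widest FM-only region covered the shared start of Peg3 and Usp29, an imprinted pair of divergently transcribed genes expressed from the paternal allele. It was 1 FM interval of 3603 bp, and in KO 3 intervals of 1817, 643 and 512 bp separated by 159 and 198 bp. Klf10, a zinc finger factor induced by TGF-beta, had 3081 bp in FM and KO pieces of 1419, 1079 and 209 bp. Acot7, an acyl-CoA thioesterase gene, had 3198 bp in FM and 4 KO pieces of 490 to 608 bp. Rrp9, of the U3 small nucleolar RNP (3346 bp), Adgrl2, an adhesion receptor (3205 bp), and Itpkb, an inositol trisphosphate kinase (3150 bp), were likewise 1 interval in FM and 2, 3 and 3 intervals in KO. In all 6 the KO list was open on both sides of the short gaps.

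Among the KO-only regions, Fat3 (3289 bp) was covered in FM by intervals of 1014 and 1958 bp with a gap of 171 bp. Stx16, a syntaxin of the trans-Golgi network, had 3061 bp in KO and FM pieces of 828 and 1942 bp only 87 bp apart, closer than any KO neighbours. Nfatc4, a factor under calcineurin control (3043 bp), Nr3c1, the glucocorticoid receptor gene (3038 bp), and Slco5a1, of the organic anion transporter family (2985 bp), had FM gaps of 131, 153 and 359 bp. Dnmt3a, a de novo DNA methyltransferase, stood apart from these 5. Its 3128 bp KO interval at chr12:3805837-3808964 faced FM intervals of 1034 and 1237 bp with 1026 bp between them in which FM had no interval. A second Dnmt3a region, 2029 bp in FM and 1919 bp in KO, lay further into the gene and was wide in FM only.

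Wide intervals held several summits each. The median was 5 summits in both lists, with an interquartile range of 4 to 6 and a range of 2 to 11, and none had 1 summit. By comparison, 92.7% of FM and 92.8% of KO intervals of 200 to under 500 bp had 1 summit. Per kb of interval, wide intervals had 2.19 summits in FM and 2.13 in KO, next to 2.14 and 2.02 at 1500 to under 2000 bp and 2.16 and 2.02 at 1000 to under 1500 bp. Among intervals of at least 1000 bp, wider ones thus held more summits at a similar spacing. The median distance between neighbouring summits was 394 bp in FM and 402 bp in KO wide intervals. It was 387 and 408 bp at 1500 to under 2000 bp and 362 and 378 bp at 1000 to under 1500 bp. In narrower intervals it was shorter, 304 and 312 bp at 500 to under 1000 bp.

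**Figure D2:**
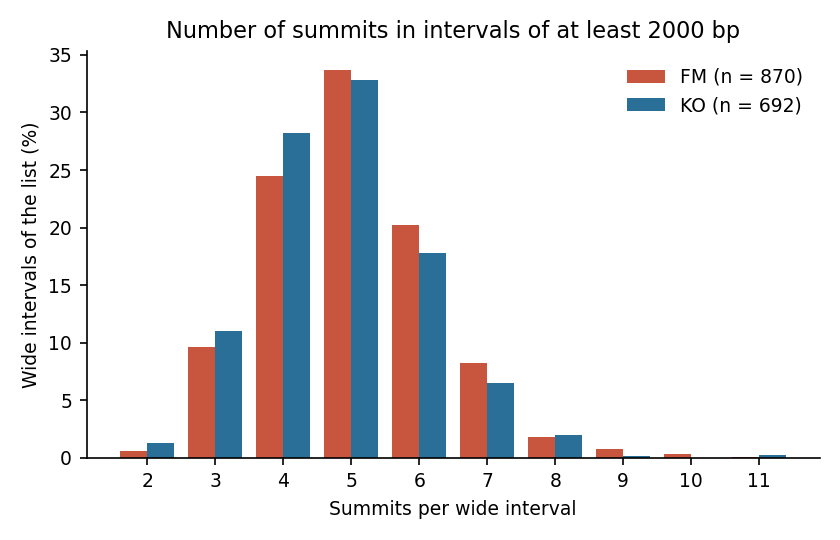
Number of summits per wide interval (x axis) against the share of the list's wide intervals in percent (y axis), for 870 FM and 692 KO intervals. Both lists are highest at 5 summits, with 33.7% of FM and 32.8% of KO wide intervals.

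Intervals with more than 8 summits were few. The FM intervals with most summits were the 4119 bp locus on chromosome 14 with 11 and those at Csf2ra, Acot7 and Tfap4, a helix-loop-helix factor, with 10 each. The KO intervals with most were both loci of 11 summits named above and Tsc22d2 with 9. Summits of 1 interval differed in height. The strongest summit had a median of 1.82 times the fold of the weakest in FM wide intervals and 2.03 times in KO. The ratio was under 1.5 in 208 (23.9%) FM and 91 (13.2%) KO intervals.

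Wide intervals combined high significance with moderate fold enrichments. The strongest summit of a wide interval had a median fold of 3.43 in FM (range 1.80 to 10.1) and 3.96 in KO (1.85 to 10.5), against 1.96 and 2.01 over all intervals of the list. A fold under 3 was found in 298 FM wide intervals (34.3%) and 139 KO wide intervals (20.1%). Of the 3637 FM intervals with a fold of at least 5, 90 were wide, and of the 6496 such KO intervals, 161 were. Over all intervals, 870 of 204650 (0.425%) were wide in FM and 692 of 138130 (0.501%) in KO. Wide intervals thus made up a larger share of the intervals with a fold of at least 5 than of all intervals. Width and height are both set by the same signal, so these values are a description.

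At gene ends the wide regions were frequent. The RefSeq gene table used carries no strand, so a gene end is either end of a protein-coding gene. Of the wide regions, 812 (71.2%, 68.5 to 73.8) lay within 1 kb of a gene end, against 10.9% of all merged regions. The share was 80.8% (76.7 to 84.5) in regions wide in both lists, 68.8% (64.2 to 73.0) in FM-only and 60.4% (54.3 to 66.2) in KO-only regions. The intervals of the shares of FM-only and KO-only regions overlapped, and both lay below that of regions wide in both. A long interval meets an end more easily, so the strongest summit was also used, and 58.5% (55.6 to 61.4) of the wide regions had it within 1 kb of a gene end.

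Over width classes the share of summits at gene ends rose and then levelled. In FM it was 5.52% of intervals of 200 to under 500 bp, 14.3% at 500 to under 1000 bp, 45.5% at 1000 to under 1500 bp, 59.2% (57.4 to 60.9) at 1500 to under 2000 bp and 58.3% (54.9 to 61.6) in wide intervals. In KO it was 6.18%, 17.9%, 52.9%, 61.8% (60.0 to 63.6) and 60.3% (56.5 to 63.9). Wide intervals were thus no more often centred on gene ends than those of 1500 to under 2000 bp.

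Significance moved with the share at gene ends. Among intervals with a −log10 q of 100 or more, the strongest summit lay at a gene end in 78.3% of wide and 75.6% of narrower FM intervals, and in 76.1% and 77.0% of KO intervals. At 50 to 100 the shares were 66.0% and 71.2% in FM and 57.3% and 57.6% in KO. At 20 to 50 wide intervals had 50.8% against 34.3% in FM and 53.3% against 24.8% in KO, and under 20 they had 29.5% against 6.17% and 27.4% against 6.79%. The class under 20 is not matched in significance: wide intervals began at a −log10 q of 7.90 in FM and 7.30 in KO, above the medians of all intervals, 5.74 and 5.90. Whether wide and narrower intervals are matched within 20 to 50 was not tested. No difference at equal significance was therefore read from either class.

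Of the 328 regions away from protein-coding ends, 214 (18.8% of all wide regions) overlapped a protein-coding gene and 114 (10%) did not. An end of another annotated gene was within 1 kb of 83 of them, and in 71 of these it was an lncRNA. The remaining 245 had no annotated gene end within 1 kb. No protein-coding gene was found within 100 kb of 18 wide regions. Besides the rRNA pseudogene and the chromosome 14 locus, the widest of these was an FM-only region of 2338 bp at chr11:114453404-114455741, where KO had 3 intervals of at most 520 bp.

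**Figure D3:**
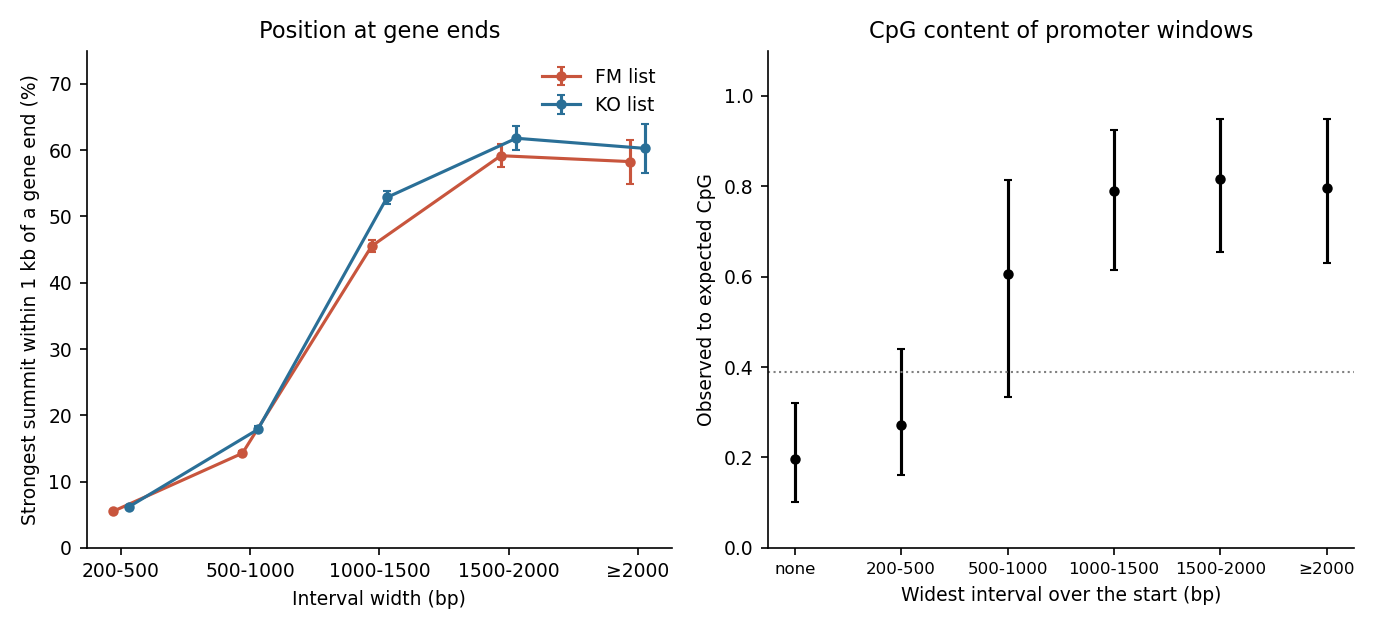
Left, share of intervals whose strongest summit lay within 1 kb of a protein-coding gene end (y axis, percent, with 95% Clopper-Pearson bars) by interval width in bp (x axis) for each list. Right, observed to expected CpG of promoter windows (median, bars from the lower to the upper quartile) by the width of the widest interval over the start, with a dotted line at the median of all windows, 0.388. Both measures climb up to 1000 to under 2000 bp and are level beyond, at 58.3% (FM) and 60.3% (KO) and at 0.797.

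RefSeq starts, which do carry a strand, were then placed in the regions. Windows of chromosome 18 were not used here, which leaves 1102 wide regions. Of these, 683 (62.0%, 59.0 to 64.9) held a start, against 5.82% of all merged regions. A long region meets a start more easily, and regions of similar width were not set beside this share. The share was 73.0% in regions wide in both lists, 54.6% in FM-only and 57.3% in KO-only regions. One start was found in 447 regions and 2 or more in 236, with at most 5, and 151 regions held starts of both strands. Windows were present for 16430 of the 20665 autosomal protein-coding genes. Starts of the other genes are therefore missing from these shares and counts, also on chromosomes other than 18.

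In the 447 regions with 1 start, more of the region lay inside the gene than before it. The upstream extent had a median of 816 bp and the downstream extent 1440 bp, and the downstream side was the longer in 315 regions (70.5%, 66.0 to 74.7). The share was 74.1% in regions wide in both lists, 69.7% in FM-only and 65.5% in KO-only regions, with overlapping intervals. The strongest summit had a median position of -44 bp and was within 250 bp of the start in 253 regions (56.6%). The downstream lean was not particular to wide regions. Over all merged regions with 1 start the downstream side was the longer in 52.0% at 200 to under 500 bp, 66.1% at 500 to under 1000 bp, 71.6% at 1000 to under 1500 bp, 67.6% at 1500 to under 2000 bp and 70.2% at 2000 bp or more. The last class held 544 regions merged from intervals of any width, so it is not the same set as the 447 wide regions.

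**Figure D4:**
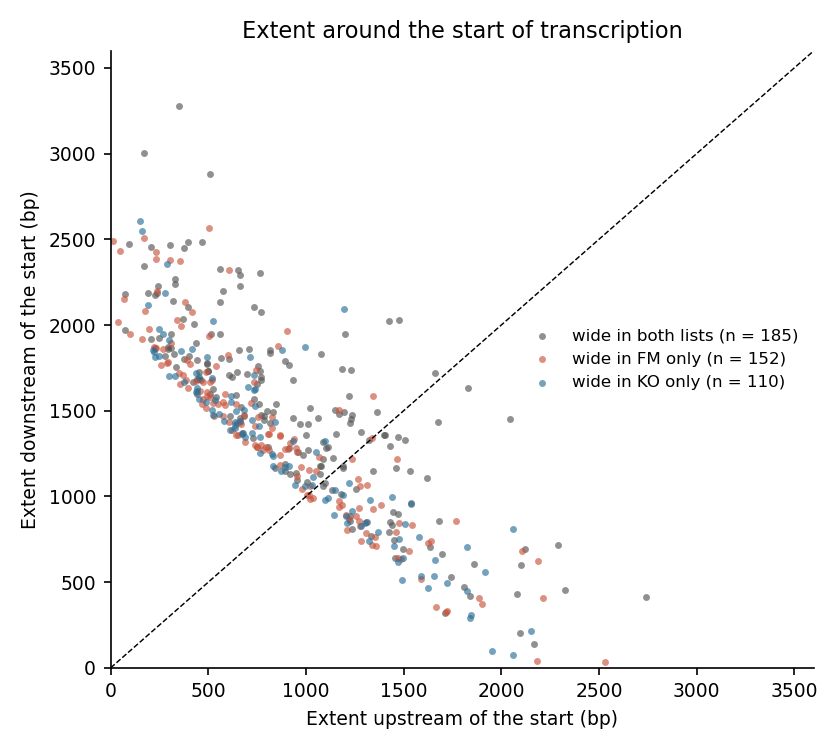
Extent of each wide region upstream (x axis, bp) and downstream (y axis, bp) of its start, for the 447 regions with 1 RefSeq start, coloured by the list in which the region was wide; the dashed line marks equal extents. Of the 447 points, 315 lie above the line, and the empty corner at lower left is set by the 2000 bp threshold.

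Promoters in wide intervals were rich in GC and in CpG. The 1003 windows whose start lay in a wide interval had a median GC content of 66.7%, against 53.0% in all 31365 windows. Their ratio of observed to expected CpG had a median of 0.797, against 0.388 overall. It was 0.196 where no interval covered the start, 0.271 at 200 to under 500 bp, 0.607 at 500 to under 1000 bp, 0.789 at 1000 to under 1500 bp and 0.817 at 1500 to under 2000 bp, so wide intervals did not exceed the class next to them. The medians were 0.799, 0.807 and 0.785 where the start lay in a region wide in both lists, FM only and KO only.

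Motif letters were searched on both strands of the 300 bases, and a match describes the letters and no binding. GGGCGG, the GC box, occurred in 73.9% of the windows in wide intervals and 36.0% of all windows. TATAAA, the TATA box, occurred in 4.89% and 13.6%, and TAATTA, a homeobox core, in 1.20% and 5.27%. The class of 1500 to under 2000 bp was close to the wide one, with GGGCGG in 76.0%, TATAAA in 4.39% and TAATTA in 0.660%. CCAAT was found in 33.0% and 37.3% and CACGTG, an E box, in 9.17% and 7.14%. CGGAAG, an ETS core, was found in 18.9% against 17.0% of all windows, and in 33.3% at 1000 to under 1500 bp and 24.4% at 1500 to under 2000 bp. Base composition alone changes how often GC-rich and AT-rich letters occur, and its part in these shares was not tested. Of the printed windows, those of Csf2ra, Pim3 and Kdm7a held GGGCGG, that of Pim3 held CCAAT, those of Pim3 and Kdm7a held CGGAAG, and that of Actl9 held TATAAA. That of Fat3 held none of the 6.

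The nearest genes were taken next. Counting every protein-coding gene at the shortest distance within 100 kb, the wide regions had 1244 nearest genes, which is 6.02% of the 20665 autosomal protein-coding genes. In 1021 regions (89.6%) the distance was 0. Another 35 regions lay within 10 kb of their gene and 66 farther away. A pair of regions or more was found at 39 genes, with 3 each at Ccn5, a secreted matricellular protein, and Shank3, a scaffold of the synapse. Some of these genes are long, such as Auts2 (1106 kb), and others short, such as Neurog2 (2.90 kb), Twist1 (2.16 kb), Sox4 (4.78 kb) and Skida1 (4.36 kb).

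Of 234 autosomal genes in 11 lists, 37 (15.8%, 11.4 to 21.1) were nearest to a wide region, against 6.02% of all autosomal protein-coding genes. The 38 regions of these 37 genes had a median width of 2204.5 bp. Of these, 15 were wide in both lists, 11 in FM only and 12 in KO only. The pluripotency and epiblast list had the highest share, 9 of 23 (39.1%, 19.7 to 61.5). Its regions were 4 in both lists, 4 FM-only and 2 KO-only. Sox2, which maintains pluripotent and neural cells, had 2662 bp in FM and 2612 bp in KO with 6 summits in each. Zic2 had 2803 and 2462 bp and Zic5 2106 and 2767 bp, both zinc finger factors of the epiblast and neural plate. Pou3f1, a POU factor of the primed epiblast, had 2397 bp in FM and 1774 bp in KO, and Esrrb, an orphan nuclear receptor of the naive state, had 1838 and 2209 bp. The epiblast markers Pou5f1 and Dnmt3b were FM-only, with 2113 and 2047 bp in FM and 1028 and 1637 bp in KO.

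Immediate early genes, which respond within minutes to serum and growth factors, had 5 of 20 members (25%, 8.66 to 49.1). Jun had 3068 bp in FM and 2228 bp in KO, and Fos, its partner in AP-1, had 1037 bp in FM and 2528 bp in KO. Egr1 had 2641 and 2176 bp, Ier3 2267 and 2059 bp, and Jund 2025 and 1512 bp. Feedback genes of signalling pathways had 5 of 18 (27.8%, 9.69 to 53.5). Spry4, an inhibitor of FGF signalling, had 2507 and 2353 bp. Axin2, an inhibitor of WNT signalling, had 2101 and 2109 bp, and Skil, which restrains SMAD proteins, had 1905 and 2127 bp. The region nearest to Id3, an inhibitor of helix-loop-helix factors, lay 7.37 kb away and had 782 bp in FM and 2076 bp in KO.

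The genes closest to Mixl1's own field, those of the primitive streak and mesendoderm, had 4 of 25 (16%, 4.54 to 36.1). Sp5, a target of WNT signalling, had 2844 bp in FM and 2481 bp in KO, and Sox17, a factor of definitive endoderm, had 2133 and 2115 bp. Wnt3, the ligand needed to form the streak, had 1176 bp in FM and 2067 bp in KO. The region nearest to Lhx1, a LIM homeobox factor, lay 14.1 kb away with 2018 bp in FM and 1469 bp in KO. Which list was wide thus differed from gene to gene within this list. None of the 20 mesoderm and cardiac genes (0 to 16.8%) was nearest to a wide region. The intervals of both lists include the 6.02% of all autosomal protein-coding genes, so neither share was read as different from it.

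Neural plate and neural tube genes had 4 of 21 (19.0%, 5.45 to 41.9). Sox1, a factor of the neural plate, had 1620 bp in FM and 2200 bp in KO. Neurog2, a proneural factor, had 1 region over the gene (2496 and 2415 bp) and 1 at 3.88 kb (2087 and 1062 bp). Nkx2-2 had 2056 and 1837 bp. Of the Hox cluster genes, which pattern the body axis, 6 of 39 (15.4%, 5.86 to 30.5) were nearest to 4 regions. Those at Hoxa3 and Hoxa4, at Hoxb3 and Hoxb4, and at Hoxb9 were wide in KO only. At Hoxa3 and Hoxa4 the widths were 851 bp in FM and 2132 bp in KO. The intervals of the neural and Hox shares both include the 6.02% of all autosomal protein-coding genes.

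Among fibroblast genes, which the feeder layer could contribute, 2 of 15 (13.3%, 1.66 to 40.5) were nearest to a wide region. They were Twist1 (2226 bp in FM and 2022 bp in KO over the gene, and 1186 and 2476 bp at 6.75 kb) and Twist2 (1293 and 2314 bp). The part of feeder cells in these regions was not tested. Ribosomal protein and housekeeping genes had 3 of 25 (12%, 2.55 to 31.2), namely Rpl7, Rpl19 and Hsp90ab1. Extraembryonic genes and genes of unrelated organs had 0 of 15 each (0 to 21.8%). The intervals of all these lists include the 6.02% of all autosomal protein-coding genes, so no share was read as different from it.

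**Figure D5:**
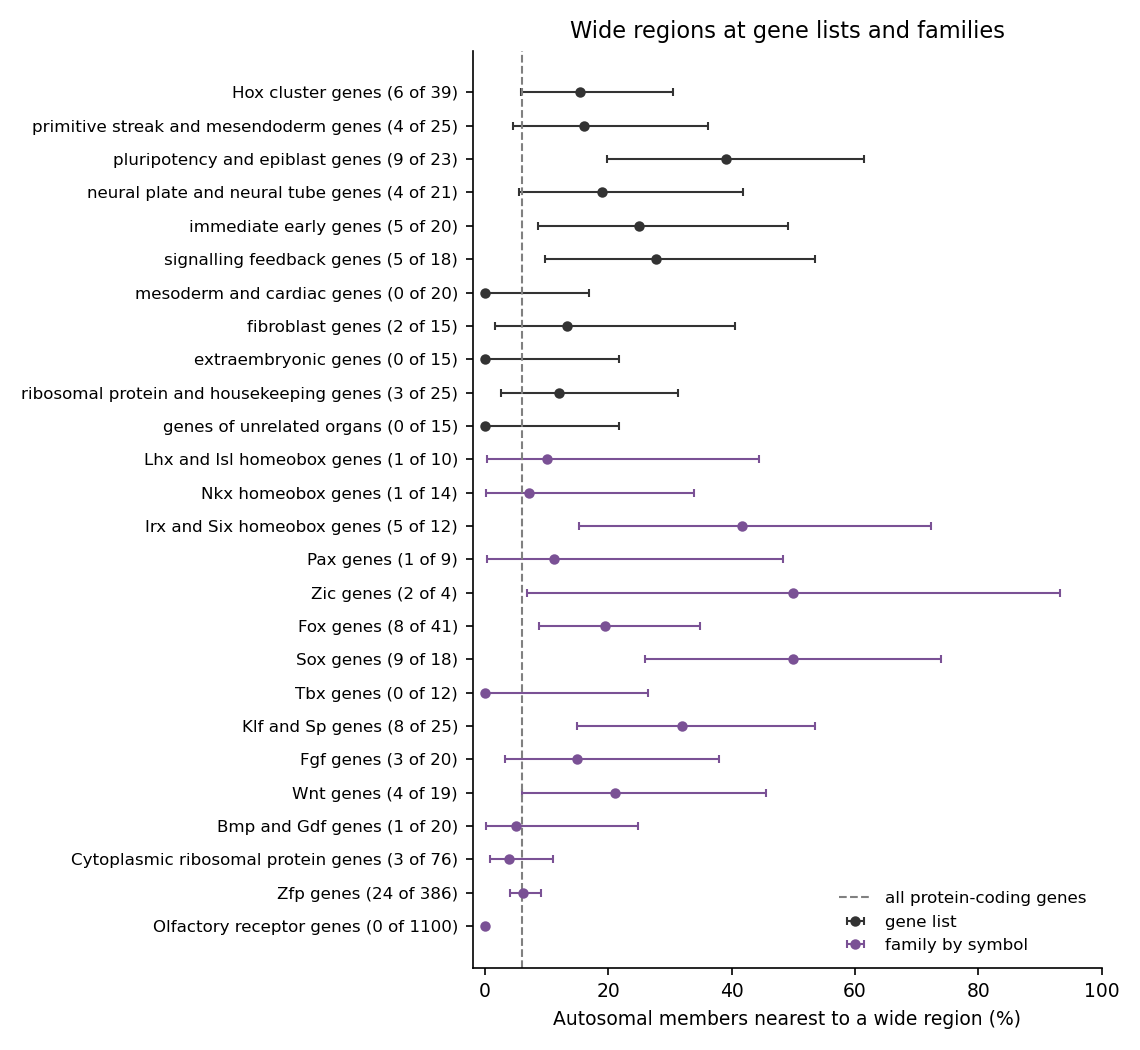
Share of the autosomal members of each gene list (black) and symbol-based family (purple) that were nearest to a wide region (x axis, percent, with 95% Clopper-Pearson bars); counts stand beside the names, and the dashed line marks the share of all protein-coding genes, 6.02%. The Sox genes (9 of 18) and the pluripotency and epiblast genes (9 of 23) lie to the right of the line, and the olfactory receptor genes (0 of 1100) to its left.

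Families defined by gene symbol were added after the data had been seen. Sox genes had 9 of 18 members (50%, 26.0 to 74.0) at 11 regions, of which 4 were wide in both lists, 4 in FM only and 3 in KO only. Besides Sox2, Sox17 and Sox1, Sox11 had 2381 bp in FM and 2625 bp in KO, and Sox12 had 2687 and 1586 bp. Homeobox genes of the Iroquois and sine oculis families had 5 of 12 (41.7%, 15.2 to 72.3), among them Irx5 (2740 bp in FM and 2782 bp in KO). Klf and Sp factors had 8 of 25 (32%, 14.9 to 53.5), with Klf13 at 2796 and 2905 bp, and Fox factors had 8 of 41 (19.5%, 8.82 to 34.9). Tbx genes had 0 of 12 (0 to 26.5%), an interval that includes the 6.02% of all autosomal protein-coding genes. The 386 Zfp zinc finger genes had 24 (6.22%, 4.02 to 9.11), close to the share of all genes, and the 1100 olfactory receptor genes had none (0 to 0.335%). Intervals of shares this small in number are broad.

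Wide regions lay on every autosome. There were 3.52 wide regions per 1000 merged regions on chromosome 1 and 5.99 on chromosome 19, the lowest and highest of the 19 autosomes, against 4.78 overall. Chromosome 12, which had 77 wide regions, had 4.27 per 1000. Per 100 protein-coding genes it had 11.3, the highest of the autosomes, against 4.09 on chromosome 7, the lowest, so its place depended on the scaling.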

How the data were processed

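ATAC-seq was done on 6 libraries, and the data were 2 peak lists, 1 per group. Per the submitters' processing notes, the authors used bcl2fastq, Bowtie2, SAMtools and MACS2 on mm10. No source used here says how libraries were combined, duplicates filtered or reads shifted for Tn5. The authors' deposited values are the fold enrichment of a summit, a ratio, and −log10 of its p-value and q-value, used to describe, rank or filter within a list. One alternative set the same −log10 q threshold in both lists. The planned ratio of FM to KO fold, and the genes it would have named, were therefore dropped.

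Rows with the same bounds were taken as summits of 1 interval. Autosomal intervals of at least 2000 bp were merged at 1 bp overlap. Gene ends and promoter windows came from RefSeq tables of GRCm38.p6, and promoter windows of chromosome 18 were not used here. The windows were present for 16430 of the 20665 autosomal protein-coding genes. Python 3.11.15, NumPy 2.4.6, pandas 2.3.3, SciPy 1.17.1 and Matplotlib 3.10.9 were used, and the overlap functions were tested on simulated data. The regions and gene lists were chosen with earlier results of these data known. Named regions are the 10 widest, the 6 widest of each class, the 5 intervals of each list with most summits, the 3 widest without a gene within 100 kb, the 3 on each side of the threshold, and up to 6 members of each gene list, of which some are not reported here. Outside this rule are the printed promoters, the epiblast markers, the loci of highest −log10 q, genes with several regions and family members, chosen after their values were seen. Alternatives varied the width, significance, joining, gene end and chromosomes.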

Additional observations from a re-analysis of the deposited data

Results flagged for a closer look

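Wide intervals also occurred outside the autosomes, in data that the comparisons above do not use. The FM list had 17 on the X chromosome and 1 on the Y chromosome. The KO list had 8 on the X chromosome, 1 on the Y chromosome and 1 on an unplaced scaffold. These counts were not set beside all intervals of the same sequences. No difference between the lists was therefore read from them.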

How the results depend on the processing

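Among 100 values under alternatives, 56 stayed within the limits set and 44 moved. A direction was defined only for the FM share of one-list regions. It never fell below 50%, but was 50% with −log10 q of at least 50, so there neither list was ahead. With a width of 1500 bp there were 5086 regions, 4078 FM and 3438 KO intervals, 47.8% wide in both lists, 64.8% at gene ends, 4 summits (FM) and 4 (KO), and 86 list genes. With 2500 bp there were 214, 159, 108, 24.8%, 77.6%, 6, 6 and 10, and with 3000 bp 42, 28, 22, 19.0%, 76.2%, 7, 7 and 2, in the same order; these counts follow from the threshold itself. With −log10 q of at least 50 there were 653 regions and 446 intervals in each list, an FM share of one-list regions of 50%, 80.2% at gene ends and 19 list genes. Joining intervals of a list up to 100 bp apart gave an FM share of 68.2%, and joining FM intervals closer than 102 bp 68.6%. Joining those up to 300 bp apart gave 2820 regions, 2307 FM and 1529 KO intervals, an FM share of 71.6%, 56.8% at gene ends and 65 list genes; the last 2 settings were chosen after seeing the data. The share at gene ends was 62.4% with the end inside the region, 74.5% within 2 kb, 78.5% with ends of all annotated genes and 58.5% by the strongest summit. Counting summits of −log10 q of at least 10 gave a median of 4 in FM and 4 in KO. The causes of these changes were not tested except where the setting itself fixes them. No paired analysis was possible because each group has 1 deposited list that holds its 3 libraries, and for the same reason no library could be left out. Depth is unknown, so regions that fell short of 2000 bp in 1 list cannot be told apart from regions sampled less deeply.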

Other observations

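MicroRNA hairpins were also placed in the regions. Of 919 annotated autosomal hairpins, 287 lay in any merged region and 10 in wide regions, each in a region of its own. There were 1140 wide regions, beside 238308 regions merged from intervals of any width. Wide intervals held 2.12% of all interval bases in FM and 2.35% in KO. Whether 10 hairpins differ from what this length gives was not tested. The 10 included Mir1956 at Eif4e, the cap-binding translation factor, in a region wide in both lists (2258 bp), and Mir5130 at Kctd12 in an FM-only region (2261 bp). An ATAC-seq peak over a hairpin measures open DNA and not the microRNA.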
